A study of Mus musculus with 4 samples.

Results

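Of the 56748 gene IDs in the count tables, 6 were the mitochondrially encoded subunits of respiratory complexes III, IV and V, chosen by symbol: mt-Cytb of complex III, mt-Co1, mt-Co2 and mt-Co3 of complex IV, and mt-Atp6 and mt-Atp8 of complex V. They were 6 of 37 rows of the mitochondrial chromosome. RNA was sequenced from lymph nodes of 4 mice with experimental autoimmune encephalomyelitis (EAE), an autoimmune inflammation of brain and spinal cord that is induced in mice as a model of multiple sclerosis. The BrQ group held 2 EAE mice treated with 2-bromo-1,4-naphthalenedione (BrQ), a quinone, and the Vehicle group held 2 EAE mice treated as controls; the sources used here give no strain, age, dose or day of collection, and no group was free of EAE. Libraries are called BrQ 1, BrQ 3, Vehicle 1 and Vehicle 3 after the sample titles. Gene rows held 6992223 and 6813832 reads in BrQ, against 7315568 and 7989226 in Vehicle, and 88.6% and 88.8% of the reads in all rows fell in no gene in BrQ, against 87.8% and 86.8% in Vehicle.

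Complex III passes electrons from ubiquinol to cytochrome c, complex IV passes them from cytochrome c to oxygen, and both pump protons out of the mitochondrial matrix. Complex V, the ATP synthase, lets the protons back in and makes ATP. Each of the 3 complexes is built from subunits encoded in the nucleus and a few encoded in the mitochondrial genome, which is transcribed as long precursors that are then cut into separate RNAs. Activated lymphocytes raise both respiration and glycolysis. The mitochondrial genome lacks introns, so the whole of each of these genes is exonic.

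Reads of these genes can also fit copies of mitochondrial DNA that lie in nuclear chromosomes, and the members differed in how much of them was copied. In the GENCODE M21 annotation of GRCm38, mt-Cytb lay at chrM:14145-15288 and its nearest annotated nuclear copy, the pseudogene Gm11410 at chr4:80003989-80005131, differed from it at 81 of 1142 aligned bases. A pseudogene on chromosome 1, Gm28661 at chr1:24614885-24615565, was identical to mt-Co2 (chrM:7013-7696) over 681 bases. Gm29216 at chr1:24615706-24616197 held 483 bases of mt-Co1 (chrM:5328-6872) with 1 difference, A1066T, counted from 1 at the first base of mt-Co1 with the base of mt-Co1 first. The stretches shown, read on the coding strand from the GENCODE transcripts, carry this contrast, with bases that differ within a pair in capitals.
mt-Cytb, chrM:14146-14245, plus strand: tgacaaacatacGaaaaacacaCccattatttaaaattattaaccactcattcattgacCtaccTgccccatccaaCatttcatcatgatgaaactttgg
Gm11410, chr4:80003990-80004089, plus strand: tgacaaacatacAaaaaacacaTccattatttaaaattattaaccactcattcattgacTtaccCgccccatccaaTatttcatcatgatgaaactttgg
mt-Co2, chrM:7013-7112, plus strand: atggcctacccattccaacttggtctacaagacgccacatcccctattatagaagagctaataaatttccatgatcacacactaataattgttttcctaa
Gm28661, chr1:24615466-24615565, minus strand: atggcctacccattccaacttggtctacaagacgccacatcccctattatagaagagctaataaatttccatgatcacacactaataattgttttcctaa
mt-Co1, chrM:6390-6489, plus strand: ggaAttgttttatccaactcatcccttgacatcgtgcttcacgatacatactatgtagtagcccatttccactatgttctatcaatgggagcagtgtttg
Gm29216, chr1:24616089-24616188, minus strand: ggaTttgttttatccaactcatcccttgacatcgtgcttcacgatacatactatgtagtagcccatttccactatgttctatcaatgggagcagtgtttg

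The first 100 aligned bases of mt-Cytb differed from the copy at 5 positions, while those of mt-Co2 differed at 0. The pseudogene Gm10925 at chr1:24613974-24614651 was identical to mt-Atp6 (chrM:7927-8607) over 678 bases, and Gm28437 at chr1:24613189-24613971 to mt-Co3 (chrM:8607-9390) over 783 bases. These pseudogenes lie side by side on chromosome 1 in mitochondrial gene order. A second copy of mt-Co1, Gm13340 at chr2:22588103-22589647, covered all 1545 bases with 37 differences.

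The gene mt-Atp8 (chrM:7766-7969) shares its last 43 bases with the start of mt-Atp6 in another reading frame, so a read across them fits both genes. A separate row for reads that fit several genes held 113444 and 107160 reads in BrQ, against 139080 and 148544 in Vehicle. Whether reads across the shared bases were counted there was not tested. The shared bases are in capitals in the sequence of mt-Atp8.
mt-Atp8, chrM:7766-7969, plus strand: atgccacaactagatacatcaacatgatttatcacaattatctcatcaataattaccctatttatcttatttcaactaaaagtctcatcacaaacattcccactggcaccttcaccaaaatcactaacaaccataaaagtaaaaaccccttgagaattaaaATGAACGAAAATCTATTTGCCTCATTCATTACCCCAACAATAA

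No annotated pseudogene covered the rest of mt-Atp8 at more than 81.4% identity. The place where a copy would lie on chromosome 1, between Gm28661 and Gm10925, is a gap with no annotated gene, and the end of the mt-Co2 copy stood 234 bases from the start of the mt-Atp6 copy there, as on the mitochondrial chromosome. The genome sequence was not used here, so identity in that gap was not measured.

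Every 100-base window of each gene was looked up in the nuclear genes that aligned to mitochondrial protein genes. The share found without a difference was 0% for mt-Cytb, 30.8% for mt-Co1, 99.5% for mt-Co2, 99.5% for mt-Atp6, 99.9% for mt-Co3 and 0% for mt-Atp8, the last by annotated copies only. With 50-base windows the share of mt-Co1 was 51.1%, and with 150-base windows 23.6%, and no read length is stated in the labels. The rows of Gm11410, Gm29216, Gm13340, Gm10925 and Gm28437 held 0 reads in all 4 libraries, which allows up to 3 reads in each, and Gm28661 held 1 read, in Vehicle 3. For much of the nuclear genome the row names were not shown to sit on the reads of the named genes, so these zeros do not show that no read came from the copies.

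Levels were first compared between genes in reads per kb of gene. In BrQ 1 and BrQ 3, mt-Co1 held 382124 and 304153 reads per kb, and in Vehicle 1 and Vehicle 3 it held 496924 and 779028. It was the row with most reads in each library. For mt-Cytb the levels were 133908 and 92558 reads per kb in BrQ, against 216912 and 327921 in Vehicle, which put it at rank 2 in every library but BrQ 3, where it was at rank 3.

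The genes with near-complete copies, and mt-Atp8 between them, held far fewer reads. On the same per-length scale, mt-Co2 stood at 1.48% and 2.38% of mt-Cytb in BrQ, against 2.21% and 2.40% in Vehicle. For mt-Co3 the level was 1.24% and 0.954% of mt-Cytb in BrQ, against 1.49% and 1.34% in Vehicle. For mt-Atp6 it was 0.637% and 0.525% in BrQ, against 0.944% and 1.77% in Vehicle. In every library mt-Atp8 was the lowest of the 6, at 0.135% and 0.0741% of mt-Cytb in BrQ, against 0.122% and 0.737% in Vehicle.

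Of the complex I genes, mt-Nd3 and mt-Nd4l lie next to these on the chromosome and in the same chromosome 1 copy, with 97.6% and 98.5% of 100-base windows shared. They were also low, at 0.363% to 0.418% of mt-Cytb per length in BrQ and 0.305% to 0.381% in Vehicle for mt-Nd3, and at 0.251% to 0.272% in BrQ and 0.286% to 0.346% in Vehicle for mt-Nd4l. The gene mt-Nd1, with 0% of windows shared, stood at 73.7% and 74.9% in BrQ, against 63.3% and 72.2% in Vehicle. The other complex I genes stood between these: mt-Nd6 and mt-Nd5, with 0% of windows shared, were at 25.0% to 31.4% and 31.8% to 39.0% over the 4 libraries, mt-Nd2, with 3.19%, at 32.1% to 37.5%, and mt-Nd4, with 60.8%, at 30.2% to 34.3%. Thus mt-Nd4 was level with genes that share few or no windows. Per-length levels of the copied genes are levels of counted reads and were not taken as transcript levels; whether the copies set them was not tested.

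**Figure D1:**
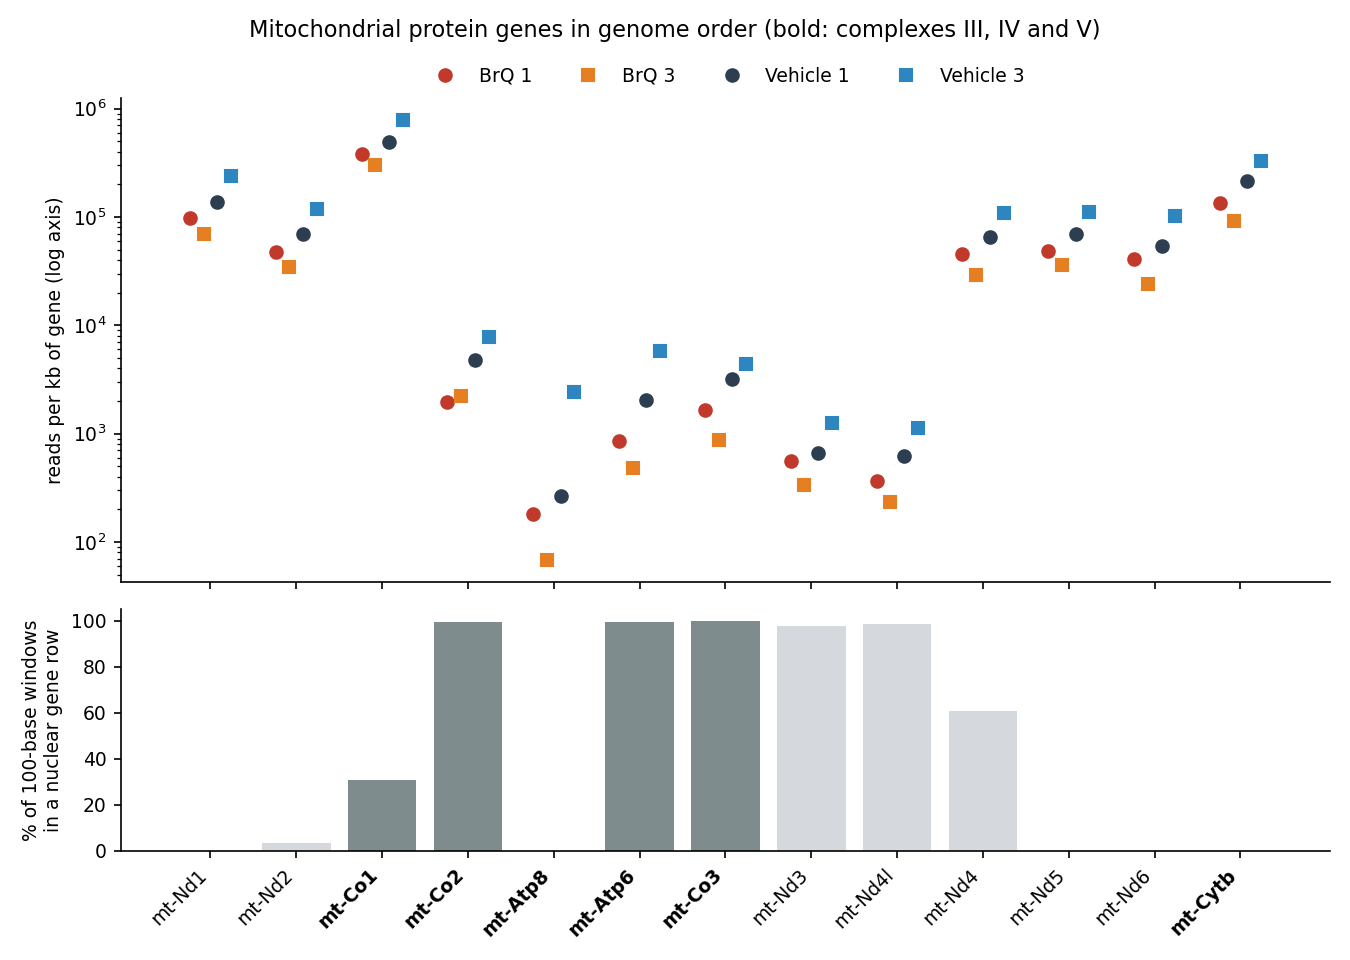
Reads per kb of gene (log axis, upper panel) of the 13 mitochondrial protein genes in genome order, 1 point per library, above the percentage of 100-base windows of each gene found in an annotated nuclear gene (lower panel). The genes from mt-Co2 to mt-Nd4l lie well below the others in all 4 libraries, and mt-Atp8 is low although its shared percentage, from annotated copies only, is 0.

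In each library the order of levels per length was mt-Co1, mt-Cytb, mt-Co2 and then the rest. The ratio of mt-Co1 to mt-Cytb was 2.85 and 3.29 in BrQ against 2.29 and 2.38 in Vehicle, so mt-Co1 stood above mt-Cytb in every library. The ratio of mt-Co2 to mt-Co3 was 1.20 and 2.50 in BrQ, against 1.49 and 1.79 in Vehicle, always above 1. The genes mt-Atp6 and mt-Co3 had no fixed order: their ratio was 0.516 and 0.551 in BrQ and 0.634 in Vehicle 1, but 1.32 in Vehicle 3. The ratio of mt-Atp8 to mt-Atp6, which lie on the same mature RNA, was 0.213 and 0.141 in BrQ, against 0.129 and 0.417 in Vehicle, so the groups overlapped.

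BrQ was compared with Vehicle to ask how far the subunits of these complexes differed after treatment. All 6 members were lower in BrQ by edgeR's quasi-likelihood test, at adjusted p-values under 0.05, and in each of the 6 both BrQ libraries lay below both Vehicle libraries. Over all 10223 rows tested, 22.2% were called lower and 23.6% higher, and 36.2% had both BrQ libraries below both Vehicle libraries. The share of all rows called lower was 5.58% without a filter on low counts, where 4 members were called, and 14.1%, 8.37%, 20.3% and 14.4% without BrQ replicate 1, BrQ replicate 3, Vehicle replicate 1 and Vehicle replicate 3, where 6, 4, 6 and 5 members were. It was 19.3% with the replicate number as a block and 25.1% with the numbers crossed, where 6 members were called each time. The median log2 fold change of the 6 was -1.83, against 0.05 over all rows tested. It was -2.32 for mt-Co2, mt-Co3, mt-Atp6 and mt-Atp8, which held few reads per length. The much-read mt-Cytb and mt-Co1 were at -1.50 and -1.13, against a median of -1.44 for the complex I genes. Fold changes of the copied genes are those of counted reads and were not taken as changes of transcript level. The groups are 2 mice each, so SDs rest on 2 values, and in bulk tissue fewer cells rich in mitochondria and less mitochondrial RNA per cell cannot be told apart.

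For complex III, mt-Cytb encodes cytochrome b, the subunit that holds the sites where ubiquinol is oxidised and ubiquinone is reduced. It had 153191 and 105886 reads in BrQ 1 and BrQ 3, against 248147 and 375142 in Vehicle 1 and Vehicle 3. In CPM, reads scaled to the library total and TMM factor, the level was 19350 and 13663 in BrQ, against 36054 and 57569 in Vehicle, with no overlap. The group means were 16506 ± 4021 CPM in BrQ and 46811 ± 15213 CPM in Vehicle (SD, n = 2 each), a log2 fold change of -1.50 with a 95% confidence interval from -2.01 to -0.99 (edgeR, adjusted p = 0.000845). The call was lost where the fit held only mitochondrial rows and rows in stretches where names and reads were taken to meet (-1.33; edgeR, adjusted p = 0.0830). As for mt-Atp8, none of the 100-base windows of mt-Cytb was found in an annotated nuclear gene.

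For complex IV, mt-Co1 encodes the catalytic subunit with the haem and copper centre where oxygen is reduced. It had 74573 and 60635 CPM in BrQ, against 111547 and 184702 CPM in Vehicle. Vehicle 3 was the highest library and the groups did not overlap. The log2 fold change was -1.13 (95% confidence interval -1.62 to -0.64; edgeR, adjusted p = 0.00292), the smallest among the 6 members. The call was lost without a filter on low counts (edgeR, adjusted p = 0.0518) and without BrQ replicate 3 (adjusted p = 0.0645), and without Vehicle replicate 3 the log2 fold change was -0.74.

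The gene mt-Co2 encodes the complex IV subunit that takes electrons from cytochrome c. It had 1353 and 1508 reads in BrQ, against 3286 and 5378 reads in Vehicle, or 171 and 195 CPM against 477 and 825 CPM. Both BrQ libraries were close together and well below Vehicle 1, the lower of the Vehicle libraries. The log2 fold change was -1.83 ± 0.23 (SE; edgeR, adjusted p = 0.000322). The gene mt-Co3 encodes the remaining core subunit of complex IV. It had 1297 and 692 reads in BrQ, against 2530 and 3439 reads in Vehicle, or 164 and 89.3 CPM against 368 and 528 CPM. The groups did not overlap, and the log2 fold change was -1.82 ± 0.27 (SE; edgeR, adjusted p = 0.000708).

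For complex V, mt-Atp6 encodes the subunit beside the rotating ring that forms the proton path. It had 581 and 331 reads in BrQ, against 1394 and 3945 reads in Vehicle, or 73.4 and 42.7 CPM against 203 and 605 CPM. Vehicle 3 stood far above the other libraries, and Vehicle 1 still stood above both BrQ libraries. The log2 fold change was -2.80 ± 0.44 (SE; edgeR, adjusted p = 0.000976). It was -1.81 without Vehicle replicate 3, -3.40 without Vehicle replicate 1 and -3.23 without BrQ replicate 1, and the call held in all 3.

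The gene mt-Atp8 encodes a short membrane subunit of the ATP synthase stalk. It had 37 and 14 reads in BrQ, against 54 and 493 reads in Vehicle, or 4.67 and 1.81 CPM against 7.85 and 75.7 CPM. Only Vehicle 3 was high, and the other 3 libraries lay between 1.81 and 7.85 CPM. The log2 fold change was -3.67 ± 0.89 (SE; edgeR, adjusted p = 0.00857), but -1.28 without Vehicle replicate 3, where it was not called (edgeR, adjusted p = 0.11). The call was also lost without BrQ replicate 3 (adjusted p = 0.0783, edgeR) and without a filter on low counts (adjusted p = 0.131). The log2 fold change was -4.56 without Vehicle replicate 1 and -4.50 without BrQ replicate 1, so its size rests on single libraries.

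**Figure D2:**
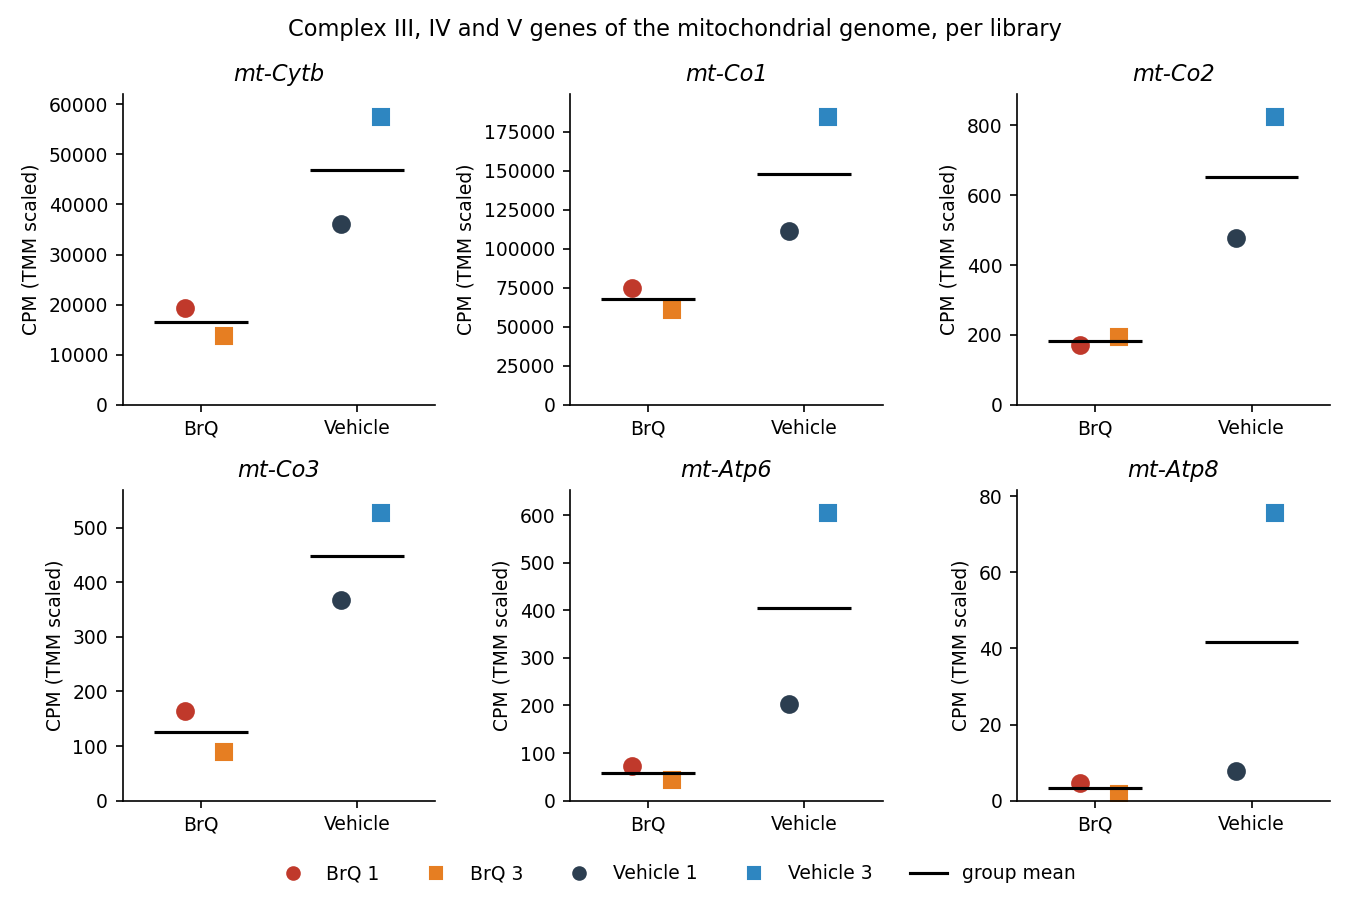
CPM (TMM scaled, linear axes from 0) of each gene in the 2 BrQ and 2 Vehicle libraries, with lines at the group means. Both BrQ points lie below both Vehicle points in all 6 panels, and in the mt-Atp8 panel Vehicle 1, at 7.85 CPM, is near the BrQ points while Vehicle 3 is at 75.7 CPM.

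Of the other rows of the mitochondrial chromosome, 17 were tested and 16 were called lower, 0 higher. All 7 complex I genes were lower, with log2 fold changes from -1.33 to -1.79 and a median of -1.44. Both ribosomal RNA rows were called lower, mt-Rnr1 at -0.84 (edgeR, adjusted p = 0.0412) and mt-Rnr2 at -0.96 (adjusted p = 0.0144). Neither was called by DESeq2 (adjusted p = 0.276 and 0.134), without BrQ replicate 3, or without Vehicle replicate 3, where they were at -0.21 and -0.43. The call of mt-Rnr1 was also lost with limma voom (adjusted p = 0.0597) and with library size alone (0.127), and its CPM overlapped, at 2182 in BrQ 1 and 2105 in Vehicle 1. Of 22 transfer RNA rows 13 held 0 reads in all 4 libraries and 8 were tested, of which 7 were lower, and mt-Ty, beside mt-Co1, was not called (-0.55, adjusted p = 0.283). Of these other rows, 7 were called without BrQ replicate 3, 10 when Vehicle replicate 3 was left out, and 4 with no filter on low counts.

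All mitochondrial rows together took 15.8% and 12.1% of gene reads in BrQ, against 20.6% and 30.3% in Vehicle. The 6 members took 10.7% and 8.49% of gene reads in BrQ, against 14.0% and 19.9% in Vehicle. The difference in the mitochondrial share, -11.5 percentage points, had p = 0.333 by exact permutation (two-sided), the smallest that 2 against 2 allows. It was -6.67 points without Vehicle replicate 3 and -16.3 points without Vehicle replicate 1.

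Next, each member was set against the other mitochondrial rows, by its share of all mitochondrial reads. Together the 6 took 67.8% and 70.1% of these reads in BrQ, against 67.9% and 65.9% in Vehicle, and the groups overlapped. The complex I genes took less in BrQ without overlap, at 28.7% and 26.8%, against 29.7% and 31.3% in Vehicle. The ribosomal RNA rows took more without overlap, at 3.32% and 3.05% in BrQ, against 2.25% and 2.65% in Vehicle. The share of mt-Co1 was 53.6% and 56.9% in BrQ, against 50.9% and 49.8% in Vehicle. Both BrQ libraries were higher, by 4.88 percentage points on average, by 3.21 without BrQ replicate 3 and by 6.56 without BrQ replicate 1. The share of mt-Cytb was 13.9% and 12.8% in BrQ, against 16.5% and 15.5% in Vehicle, lower in both BrQ libraries by 2.63 percentage points on average. The differences of mt-Co1 and mt-Cytb each had p = 0.333 in the two-sided exact permutation test, the smallest possible.

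The less-read members had lower shares in BrQ too. The share of mt-Co2 was 0.123% and 0.183% in BrQ, against 0.218% and 0.223% in Vehicle. The share of mt-Co3 was 0.118% and 0.0838% in BrQ, against 0.168% and 0.142% in Vehicle. The share of mt-Atp6 was 0.0527% and 0.0401% in BrQ, against 0.0925% and 0.163% in Vehicle. In all 3 the groups did not overlap. Nor did they for mt-Nd1, mt-Nd2, mt-Nd4, mt-Nd4l and mt-Nd5, also lower in BrQ, while mt-Nd3 and mt-Nd6 overlapped. Lack of overlap was therefore not particular to these members. For mt-Atp8 the share was 0.00336% and 0.00170% in BrQ, against 0.00358% and 0.0204% in Vehicle, so that BrQ 1 and Vehicle 1 were nearly equal. Summed, mt-Co2, mt-Co3, mt-Atp6 and mt-Atp8 took 0.297% and 0.308% of mitochondrial reads in BrQ, against 0.482% and 0.548% in Vehicle. The same exact permutation test gave p = 0.333 for each of mt-Co2, mt-Co3, mt-Atp6 and mt-Atp8 and for the sum.

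Because mt-Co1 took most of the mitochondrial reads, its share bears on all the others. Of the reads of mitochondrial protein genes without mt-Co1, mt-Cytb took 32.4% and 32.2% in BrQ, against 35.3% and 32.8% in Vehicle, a difference of -1.76 percentage points without overlap. On that base mt-Co2, mt-Co3 and mt-Atp6 still did not overlap, but mt-Co2 had 0.458% in BrQ 3, against 0.467% in Vehicle 1. Other mitochondrial rows were not compared on that base. For mt-Atp8 the groups overlapped (exact permutation p = 0.667).

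**Figure D3:**
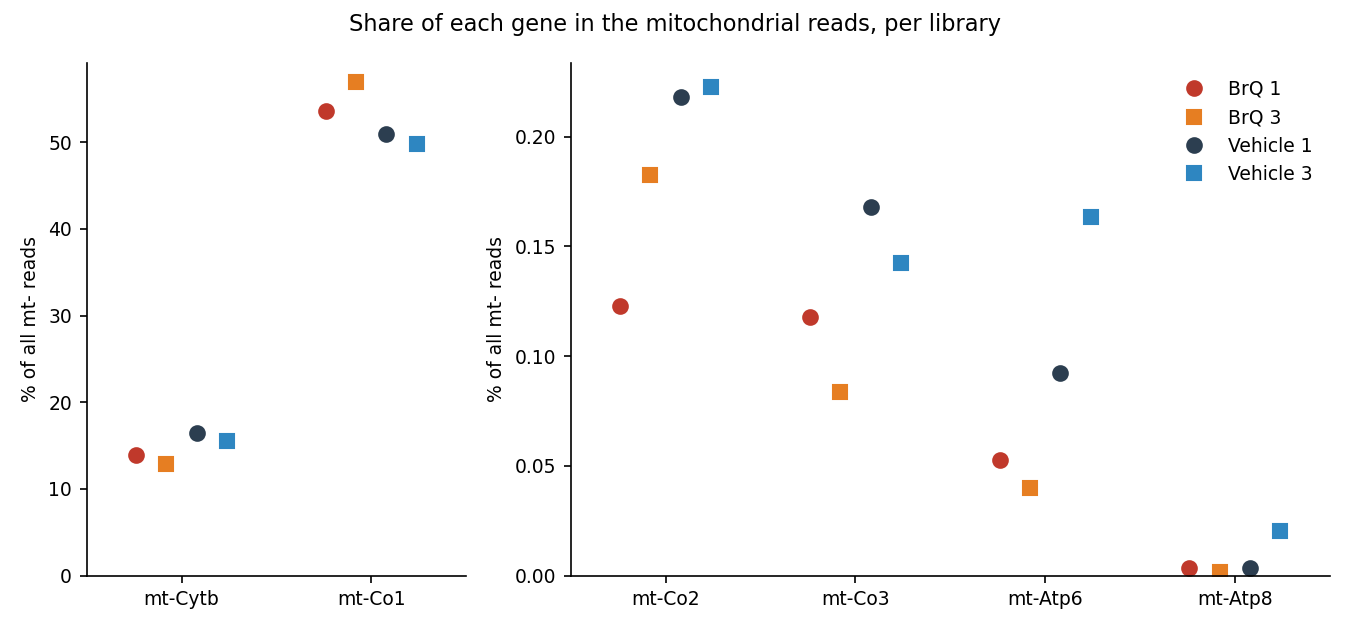
Percentage of all mitochondrial reads in each gene, 1 point per library, with separate axes for mt-Cytb and mt-Co1 (left) and for the other genes (right). The BrQ points lie above the Vehicle points for mt-Co1 and below them for mt-Cytb, mt-Co2, mt-Co3 and mt-Atp6, while for mt-Atp8 Vehicle 1 lies level with BrQ 1.

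A fit across all rows with library size set to the mitochondrial reads asked the same, with a spread for each row that draws on all rows. In that fit 0.274% of all rows were called lower and 49.3% higher, with a median log2 fold change of 1.28 by the construction of that scaling. Of the 6 members, mt-Atp6 (-1.46, adjusted p = 0.0224, edgeR) and mt-Atp8 (-2.33, adjusted p = 0.00176, edgeR) were called lower. These calls rest on single libraries: 0 of the 6 were called without Vehicle replicate 3 (0.379% of all rows lower), without BrQ replicate 1 (0.0274%) or without BrQ replicate 3 (0.00914%). With the replicate block 0 of the 6 were called as well (0.225% of all rows lower). In size, mt-Atp6 was at -0.98 and mt-Atp8 at -0.44 without Vehicle replicate 3, but at -1.81 and -2.95 without Vehicle replicate 1. Without BrQ replicate 1 the 2 genes were at -1.69 and -2.96, and without BrQ replicate 3 at -1.29 and -1.98.

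The other members were not called relative to mitochondrial reads, with intervals that leave room for change either way. The log2 fold change of mt-Cytb was -0.26 (95% confidence interval -0.97 to 0.45), that of mt-Co1 0.13 (-0.44 to 0.70), that of mt-Co2 -0.54 (-1.59 to 0.51) and that of mt-Co3 -0.61 (-1.66 to 0.45). Of the other 17 mitochondrial rows, 0 were called in this fit, and complex I genes had a median of -0.16, against -0.57 for the 6 members. The copied complex I gene mt-Nd4l was at -0.53. The SE was larger here than in the fit scaled to gene reads, at 0.54 against 0.23 for mt-Co2 and 0.39 against 0.23 for mt-Nd5. For mt-Atp8 alone it was smaller, at 0.66 against 0.89. A row not called in this fit was therefore not shown to be unchanged.

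**Figure D4:**
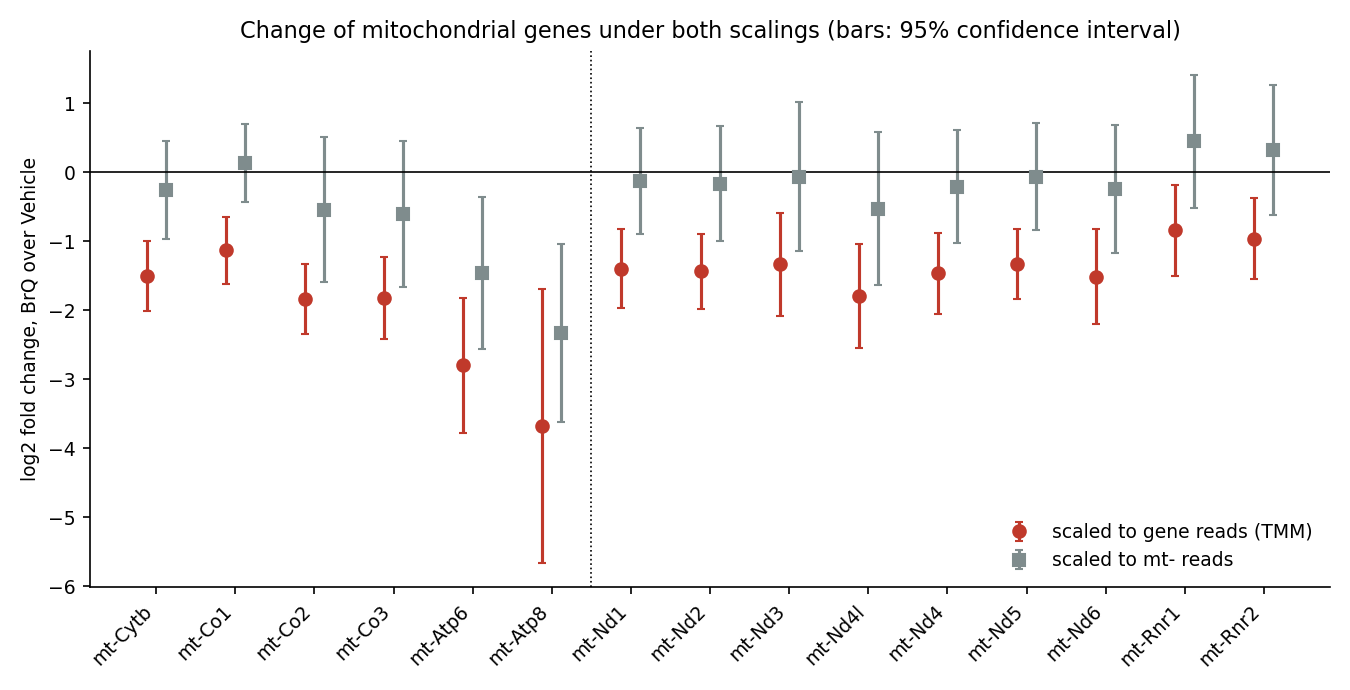
Log2 fold change of BrQ over Vehicle with 95% confidence intervals, for the 6 genes (left of the dotted line) and the other mitochondrial protein and ribosomal RNA genes, scaled to gene reads or to mitochondrial reads. All 15 are below 0 when scaled to gene reads; scaled to mitochondrial reads, the intervals of mt-Atp6 and mt-Atp8 alone stay below 0.

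Nuclear genes supply the remaining subunits and the assembly factors of complexes III, IV and V. Of 54 such rows, 19 had enough reads to be tested, and 7 were called lower and 4 higher in BrQ, where 45.7% of all rows were called in either direction. With library size alone as the scaling the split was 2 lower and 7 higher, where 10.5% of all rows were called lower and 35.3% higher. Without BrQ replicate 1 the number called was 6, where 31.6% of all rows were called, and without BrQ replicate 3 it was 5, where 18.6% were. Of the 54 rows, 19 held 0 reads in all 4 libraries, among them Cox4i1, Atp5b and Uqcrc2, which encode subunits of these complexes. Most of these names were therefore not shown to stand for the named gene. Cox6c and Ndufa4 lie in stretches where names and reads were taken to meet when these files were first examined. Cox6c, a nuclear subunit of complex IV, had 260 and 241 CPM in BrQ, against 344 and 342 CPM in Vehicle, a log2 fold change of -0.45 (edgeR, adjusted p = 0.0190) that was -0.08 and not called with library size alone. It was also not called without BrQ replicate 1 (edgeR, adjusted p = 0.0811) or without BrQ replicate 3 (adjusted p = 0.182). Ndufa4, another subunit of complex IV, had 275 and 268 CPM in BrQ, against 256 and 177 CPM in Vehicle. It was not called (log2 fold change 0.33, adjusted p = 0.158, edgeR), but was called higher with library size alone (0.68, adjusted p = 0.00957, edgeR). Scaled by all reads listed, Ndufa4 was called higher (0.53, edgeR, adjusted p = 0.0354) and Cox6c was not called (-0.25, adjusted p = 0.191). The same held where the fit kept only mitochondrial rows and rows in those stretches. There Ndufa4 was at 0.48 (edgeR, adjusted p = 0.0216) and Cox6c at -0.29 (adjusted p = 0.0682). Without Vehicle replicate 1 Ndufa4 was at 0.60, and without Vehicle replicate 3 at 0.07.

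Among 5041 rows with a mean of at least 100 reads outside the 6 members, the 5 whose log2 CPM followed mt-Cytb most closely across the 4 libraries were those labelled Armt1, Oxt, Riok1 and Gm35082, and mt-Nd4. Their root mean square distance from mt-Cytb, each row centred on its mean, was 0.04 to 0.07 on the log2 scale. The first 4 labels lie outside the stretches named above. The other complex I genes followed at ranks between 9 (mt-Nd2) and 57 (mt-Nd3).

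Marker lists were summed by row name, which for most of these rows was not shown to sit on the reads of the named gene. Of 7 B cell markers 4 had at least 10 reads in each library, and the list summed to 2968 to 2980 CPM in BrQ and 3515 to 3919 CPM in Vehicle, with Ms4a1 at 0. Its rows went both ways. In reads not scaled to library size, Cd72 and Cd22 were lower in both BrQ libraries, Pax5 overlapped, and Cd79a and Cd79b were higher. Cd72 had 8241 and 7952 reads in BrQ, against 13884 and 13917 in Vehicle, and Cd79b had 393 and 432, against 266 and 139. Of 7 T cell markers 5 did, with sums of 1013 to 1107 CPM in BrQ and 1222 to 1349 CPM in Vehicle. Here too the rows went both ways. In such unscaled reads, Cd3g, Cd4, Il7r and Sit1 were lower in both BrQ libraries, Cd3e and Cd8a were higher, and Cd3d overlapped. Cd4 had 777 and 762 reads in BrQ, against 1870 and 1837 in Vehicle, and Cd3e had 1470 and 1406, against 1294 and 1175. The order of close counts, such as those of Pax5 and Cd3e, can change with scaling. The stroma list, with Ccl21a and Pdpn at 0, had 1 of 5 and sums of 14.4 to 19.5 CPM in BrQ and 17.5 to 21.2 CPM in Vehicle, and the myeloid list had 1 of 4 and sums of 3.23 to 5.72 CPM in BrQ and 5.63 to 7.52 CPM in Vehicle. The adipocyte list had 1 of 5, with Adipoq, Fabp4 and Lep at 0, and sums of 23.3 to 33.2 CPM in BrQ and 90.1 to 114 CPM in Vehicle, nearly all of it on the row labelled Ucp1. The muscle list had 1 of 4, with Acta1 at 0, and sums of 13.4 to 15.4 CPM in BrQ and 16.1 to 17.5 CPM in Vehicle. The proliferation list had 1 of 2, with Mki67 at 0, and sums of 77.5 to 78.5 CPM in BrQ and 29.8 to 45.4 CPM in Vehicle. The part of these differences in the mitochondrial result was not tested.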

How the data were processed

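Lymph node RNA of 4 EAE mice was sequenced in paired ends, 1 library per mouse. The deposited files hold unnormalized counts for each gene ID. The submitters' processing notes name Trim Galore 0.6.2 and mm10, with HISAT2 2.1.0 and HTSeq 0.11.2. Annotation release, strand setting and the treatment of reads with several alignments: not given in the sources used here. Of 5 closing rows that name no gene, 3 (not unique, low quality, not aligned) held 0 in each table. These 5 rows, 87.0% to 89.0% of all reads listed, were tested nowhere and entered library sizes only in the alternative that scales by all reads listed. The counts of the BrQ pair differed with a chi-square of 12.4 per degree of freedom and those of the Vehicle pair with 26.6, above sampling noise.

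Tests used edgeR 4.0.16 in R 4.3.3 (quasi-likelihood, filterByExpr, TMM, group as the only term, Benjamini-Hochberg adjustment over all rows tested, threshold 0.05), checked on simulated counts; CPM are TMM scaled, and sums of marker lists are CPM of gene reads without that factor. Shares were compared with exact permutation tests. Alternatives used DESeq2 1.42.0 and limma 3.58.1 among others. Copies were found with blastn 2.17.0 in GENCODE M21 transcripts, which held 52073 of the IDs, and figures were drawn with matplotlib 3.10.9. All 6 members were named, with other genes of the mitochondrial chromosome and the 5 rows most like mt-Cytb. Nuclear subunits were named with at least 100 reads in every library inside the stretches where names and reads were taken to meet. The pseudogenes were named for their alignment to members. Cox4i1, Atp5b, Uqcrc2, mt-Ty and Ucp1, and the B and T cell markers named singly, were picked after their values were seen. Members and lists were chosen with earlier results of these data known. Each library is a separate mouse, and p-values reflect only how these 4 mice vary. The value of 1 B cell marker is not reported here.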

Additional observations from a re-analysis of the deposited data

Results flagged for a closer look

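Reads that fell in no gene, which were not tested as a feature, stood higher in BrQ than in the controls. Their mean share of the reads in all rows was 88.7% in BrQ, against 87.3% in Vehicle, and the groups did not overlap. The difference had p = 0.333 in the two-sided exact permutation test, the smallest that 2 against 2 allows. On that same base the mitochondrial rows made up 1.78% and 1.33% in BrQ, against 2.48% and 3.92% in Vehicle. Both shares are parts of the same total, so they are not independent.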

How the results depend on the processing

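The 6 genes were lower in BrQ under each of 15 alternatives, and the calls of mt-Co2, mt-Co3 and mt-Atp6 held in all of them. For the other 3, mt-Co1 lost its call in 3, mt-Atp8 in 4 and mt-Cytb in 1. That 1 fitted only mitochondrial rows and rows where names and reads were taken to meet, an alternative chosen after seeing the data: mt-Cytb was at -1.33 (edgeR, adjusted p = 0.0830) and mt-Co1 at -0.96 (adjusted p = 0.573). The cause was not tested. With limma voom mt-Atp8 was at -3.01 (adjusted p = 0.0813). Leaving out 1 library gave 4 to 6 members called, a median log2 fold change of -2.14 to -1.34, 7 to 17 other mitochondrial rows called, 5 to 10 nuclear rows called and 0 to 2 members called relative to mitochondrial reads; the lone library of a group was then assumed to vary like the others. Without a filter on low counts, 4 members, 4 other mitochondrial rows and 6 nuclear rows were called. All rows tested had a median of 0.05, against 0.42 when scaled by the gene reads alone and 0.26 when scaled by all reads listed; relative to it the members' median was -1.88, -1.86 and -1.87. The labels do not say that replicate numbers pair mice, and same-numbered libraries deviated with a correlation of -0.12. With the replicate block 6 members were called, and 0 relative to mitochondrial reads, where mt-Atp6 was at -1.39 (edgeR, adjusted p = 0.317) and mt-Atp8 at -2.05 (adjusted p = 0.0714); all rows called were 4190, against 4676. With crossed numbers, added after seeing the data, 6 members and 17 other mitochondrial rows were called. Depth was lowest for mt-Atp8, with 37 and 14 reads in BrQ, against 54 and 493 in Vehicle.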

Other observations

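Transfer RNA rows lie between many of the protein genes, and those on the same strand mark where a precursor is cut. Near mt-Cytb, mt-Te had 11.0 and 7.87 CPM in BrQ, against 26.2 and 41.4 CPM in Vehicle (log2 fold change -1.84), and was called lower without any 1 of the 4 libraries. Farther on, mt-Tp had 96.4 and 54.6 CPM in BrQ, against 134.2 and 285 CPM in Vehicle (-1.47), and was at -0.84 without Vehicle replicate 3 and not called without BrQ replicate 3 (edgeR, adjusted p = 0.0755). Beside mt-Co1, mt-Ts1 had 73.3 and 55.1 CPM in BrQ, against 83.8 and 273 CPM in Vehicle (-1.47), with only Vehicle 3 far from the rest. It was at -0.40 and not called without Vehicle replicate 3 (edgeR, adjusted p = 0.174). On the other side of mt-Co1, mt-Ty had 32.1 and 13.3 CPM in BrQ, against 22.1 and 44.8 CPM in Vehicle (-0.55, not called), and the groups overlapped. It was at 0.03 without Vehicle replicate 3, and at -1.31 and called lower without BrQ replicate 1 (edgeR, adjusted p = 0.0376). These 4 rows are annotated on the minus strand and the 6 protein genes on the plus strand, so they were not read as cut sites of those genes. Since the strand used in counting is not stated, reads of such a row and of RNA from the other strand cannot be told apart.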
